A study of Mus musculus with 8 samples.

Results

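The 10 genes described here are classic targets of the cellular response to low oxygen: Vegfa, Adm, Slc2a1, Pdk1, Ndufa4l2, Car9, Bnip3, Egln3, Ndrg1 and Ankrd37. They were chosen by name, with results of these data already known, from the 23115, 22923 and 22777 loci with a gene symbol in the female knockout, male knockout and KI tables. All 10 were found in each of the 3 tables, on loci that carried no other symbol. Because the choice was not independent of the values, every level and ratio below is a description and none carries a p-value.

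Total RNA came from cultured muscle precursors (satellite cells of B6/129 mice) that had been switched to differentiation for 24 h. They were sorted by a Rosa26 tdTomato reporter that Cre turns on, with CreER expressed from Pax7, a gene of satellite cells, and all groups were grown with 20% serum, 2.5 ng/mL FGF and 2.5 µM 4-hydroxytamoxifen, which activates CreER. The 8 libraries formed 6 groups: female UTX knockout (KO, which adds a floxed UTX allele) and female wild type (WT), male KO and male WT with 1 library each, and female KI and female Ctrl-KI with 2 libraries each. A genotype with Pax7-CreER and the reporter is spelled out for the female KO and WT libraries alone; the other groups are known by title, with no statement of the allele in KI, the animals' age or how many gave cells. UTX, encoded by Kdm6a, is an X-linked demethylase of histone H3 lysine 27. The expression unit was FPKM, which divides fragments by transcript length and by the library's mapped total, in 3 separately estimated tables of 2 columns, 1 per group. The KI table gives 1 pooled value for the 2 libraries of a group, so no group has replicate values and the deposited confidence intervals, whose level is not stated, are the only error. In bulk RNA, fewer cells of a type and less RNA per cell cannot be told apart.

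In well-oxygenated cells the alpha subunits of the hypoxia-inducible factors (HIF) are hydroxylated by the EGLN prolyl hydroxylases, bound by the VHL ubiquitin ligase and degraded. When oxygen is low the alpha subunit persists, pairs with ARNT and binds hypoxia response elements near genes for glucose uptake and glycolysis, blood vessel growth, mitochondrial removal and pH control. In muscle this programme accompanies the shift between oxidative and glycolytic energy supply.

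The promoters are shown because the hypoxia response element is the sequence through which HIF is known to act on these genes. RefSeq promoters (build GRCm38.p6, 250 bases before to 50 after the start, the most upstream start of each gene) were at hand for 8 of the 10 genes; Ndufa4l2 and Ndrg1 had no entry. One form of its core, ACGTG, called the core below, was searched on both strands, where CACGT is the match on the reverse strand. Other forms of the core were not searched. The searched form occurred in 5 of the 8, and in 5305 of 27025 promoters of the same length over all genes (19.6%). The stretches below run from 250 bases before to 30 after the start, 5′ to 3′ on the gene's own strand, with the searched form in capitals. They lie at chr4:43506776-43507055 (+) for Car9, chr4:119108495-119108774 (+) for Slc2a1, chr7:138909477-138909756 (-) for Bnip3, chr12:54203845-54204124 (-) for Egln3 and chr8:45999821-46000100 (-) for Ankrd37.
Car9: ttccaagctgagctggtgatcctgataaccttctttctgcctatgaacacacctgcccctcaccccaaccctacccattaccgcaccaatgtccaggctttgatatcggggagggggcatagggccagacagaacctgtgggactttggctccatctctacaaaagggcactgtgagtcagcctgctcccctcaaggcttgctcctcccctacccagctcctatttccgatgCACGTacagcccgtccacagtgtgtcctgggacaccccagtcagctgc
Slc2a1: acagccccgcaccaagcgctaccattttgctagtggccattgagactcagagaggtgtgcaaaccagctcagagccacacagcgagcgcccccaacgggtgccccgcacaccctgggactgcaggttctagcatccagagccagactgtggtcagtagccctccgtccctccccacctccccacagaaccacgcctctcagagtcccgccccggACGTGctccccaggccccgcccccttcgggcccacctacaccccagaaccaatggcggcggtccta
Bnip3: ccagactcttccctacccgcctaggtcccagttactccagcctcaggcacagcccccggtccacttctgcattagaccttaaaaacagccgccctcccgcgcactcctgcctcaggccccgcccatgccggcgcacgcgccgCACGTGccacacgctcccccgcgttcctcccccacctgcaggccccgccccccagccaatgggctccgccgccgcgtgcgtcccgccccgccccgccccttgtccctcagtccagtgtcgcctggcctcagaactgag
Egln3: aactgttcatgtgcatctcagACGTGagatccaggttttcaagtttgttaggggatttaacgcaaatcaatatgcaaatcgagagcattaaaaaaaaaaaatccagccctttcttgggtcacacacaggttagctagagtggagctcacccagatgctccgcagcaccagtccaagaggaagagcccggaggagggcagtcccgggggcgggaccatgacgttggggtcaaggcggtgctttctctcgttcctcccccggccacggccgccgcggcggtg
Ankrd37: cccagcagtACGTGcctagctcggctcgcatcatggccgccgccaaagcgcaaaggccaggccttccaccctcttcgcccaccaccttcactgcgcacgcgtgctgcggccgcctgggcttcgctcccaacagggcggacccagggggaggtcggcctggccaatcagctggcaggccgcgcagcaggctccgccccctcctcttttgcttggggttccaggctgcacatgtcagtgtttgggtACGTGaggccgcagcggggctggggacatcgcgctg
The Car9 core began 18 bases and the Slc2a1 core 36 bases before the start, and Bnip3 carried overlapping cores on both strands that began at 108 and 107 bases before it. Egln3 held 1 core, 229 bases before the start, and Ankrd37 held 2, which began 241 and 6 bases before it. In the promoters of Vegfa, Adm and Pdk1 these letters were not found in this window. This does not show that they lack a hypoxia response element, since other forms and places were not searched. A match is a description of the letters and not of binding.

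**Figure D1:**
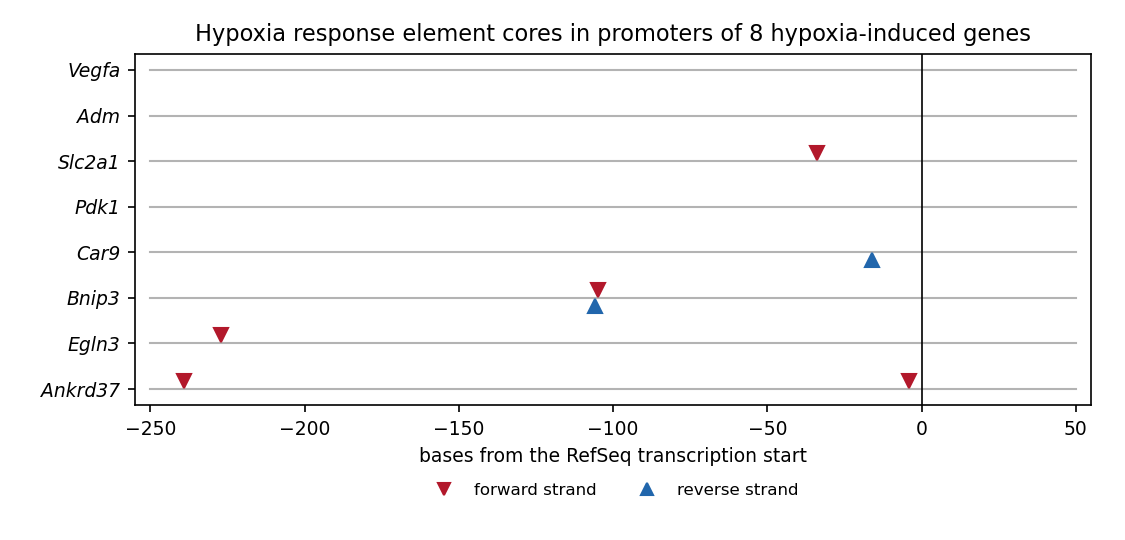
Positions of the ACGTG core in the RefSeq promoters (GRCm38.p6) of the 8 hypoxia-induced genes with an entry; the x axis gives bases from the transcription start and triangles mark the core on the forward (red) or reverse (blue) strand. This form of the core, the only one searched, occurs in 5 of the 8 promoters, nearest the start in Ankrd37, Car9 and Slc2a1.

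The libraries of the female KO table stood apart from all others in these genes. In both the female KO and the female WT column all 10 genes were at least 2-fold above each of the 4 other columns, on the scale of FPKM + 1. The median over the 10 genes of this gap, the lower of the female KO and WT values over the highest of the other 4, was 3.62 on the log2 scale. Over the 11535 genes that could be set side by side it was -0.41, and 862 of them (7.47%) were 2-fold above in this way. The deposited intervals of both columns lay above those of the other 4 columns for 8 of the 10 genes, against 2.60% of all genes. Vegfa and Ndufa4l2 were the exceptions, because an interval of each reaches low values. Tables were estimated separately, so these levels are set side by side without a test. The median gene was 0.12 higher (log2) in female WT than in male WT cells and 0.12 higher than in Ctrl-KI cells.

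Facts of the whole series bear on these levels. Kdm6a itself was 16.9 FPKM in female KO and 20.8 in female WT cells, 2.08 in male KO and 7.87 in male WT cells, and 13.2 in KI and 12.8 in Ctrl-KI cells. Its deposited intervals of mutant and control overlapped in each table, the male one included. Myog, the regulator that opens muscle differentiation, was read at 817 FPKM or more in every column. As a share of its FPKM, the median gene had a deposited interval of 119.9% in female KO and 119.0% in female WT cells, 167% in male KO and 171% in male WT cells, and 39.8% in KI and 40.0% in Ctrl-KI cells. Read depth is unknown.

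**Figure D2:**
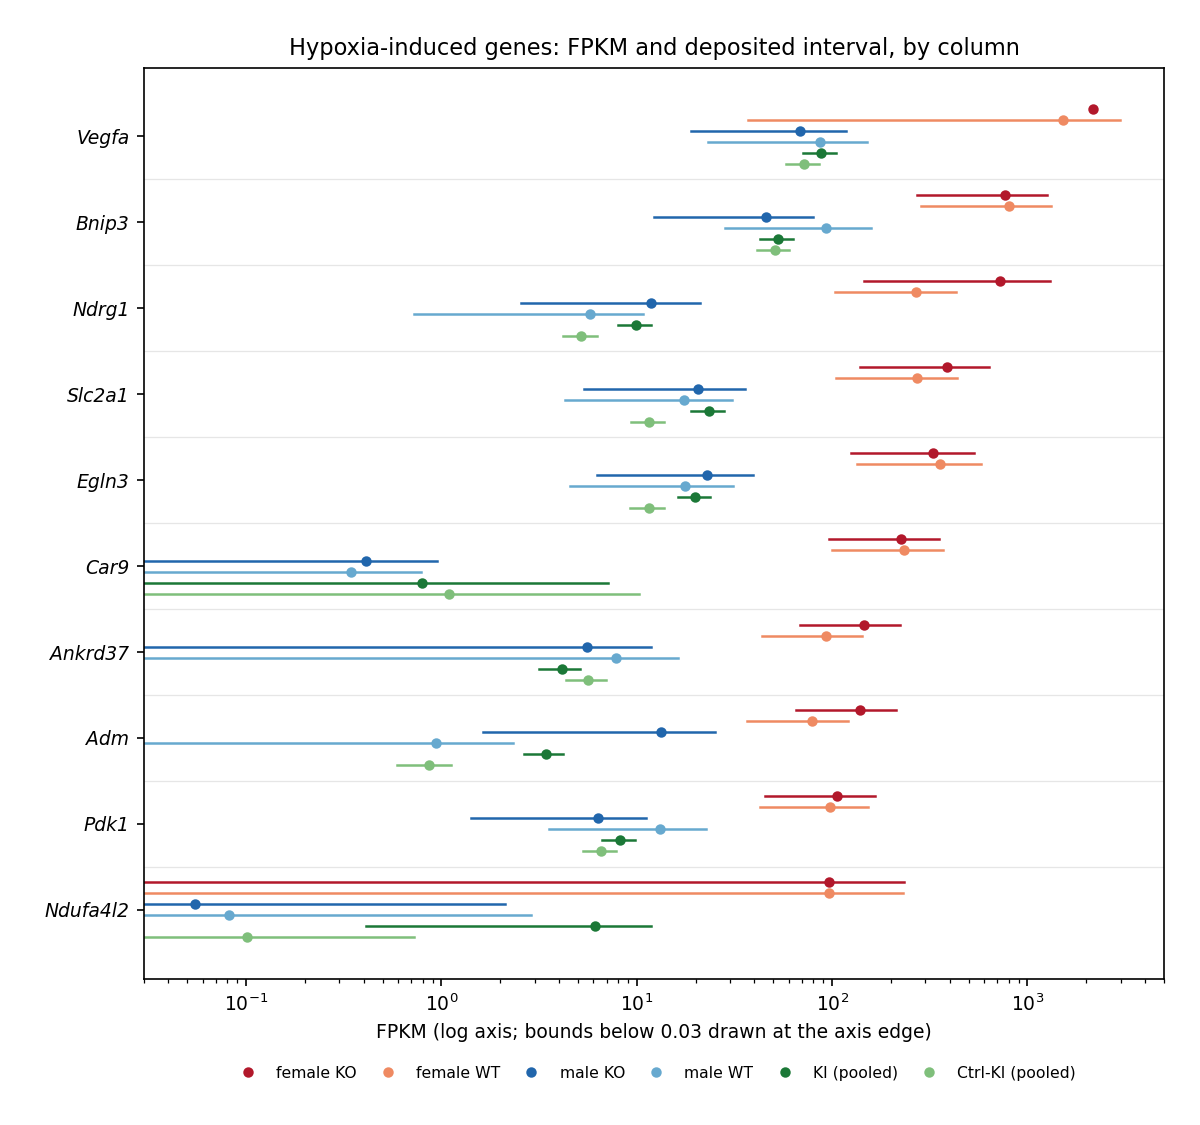
FPKM of the 10 hypoxia-induced genes in the 6 columns (log axis); points are the deposited values, lines the deposited confidence intervals, and the KI and Ctrl-KI columns pool 2 libraries each. The red and orange points (female KO and WT) lie between 78.6 and 2159 FPKM and to the right of all other columns for every gene.

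Among the secreted factors, Vegfa (mm9 chromosome 17, 46153943 to 46169326), the main growth factor for blood vessels, was 2159 FPKM in female KO and 1512 in female WT cells, 68.5 in male KO and 87.1 in male WT cells, and 88.1 in KI and 72.0 in Ctrl-KI cells. It was among the most abundant transcripts of the female KO table, at percentile 99.99 of the side-by-side genes in female KO and 99.9 in female WT cells, and between percentiles 91.7 and 93.9 elsewhere. Its deposited interval in female KO cells, 2105 to 2213, is far narrower than that in female WT cells, 37.0 to 2987.

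Adm (mm9 chromosome 7, 117771183 to 117773333) encodes adrenomedullin, a peptide that widens blood vessels. It was 138 FPKM in female KO and 78.6 in female WT cells, 13.4 in male KO and 0.937 in male WT cells, and 3.42 in KI and 0.858 in Ctrl-KI cells. Each mutant column was above its own control. In the male table the Adm locus is drawn wider, to 117796289, so that level may be estimated over other sequence.

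Genes of energy supply followed. Slc2a1 (mm9 chromosome 4, 118781350 to 118809934), the glucose transporter GLUT1, was 388 FPKM in female KO and 271 in female WT cells, 20.7 in male KO and 17.5 in male WT cells, and 23.5 in KI and 11.5 in Ctrl-KI cells. Pdk1 (mm9 chromosome 2, 71711329 to 71741915), the kinase that shuts pyruvate dehydrogenase, was 106 FPKM in female KO and 98.1 in female WT cells, 6.31 in male KO and 13.1 in male WT cells, and 8.20 in KI and 6.55 in Ctrl-KI cells. For both genes the 4 low columns lay closer to each other than to either column of the female KO table.

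Ndufa4l2 (mm9 chromosome 10, 126951995 to 126959500) encodes a mitochondrial protein related to the respiratory chain subunit Ndufa4. It was 95.9 FPKM in female KO and 96.6 in female WT cells, 0.0546 in male KO and 0.0815 in male WT cells, and 6.14 in KI and 0.101 in Ctrl-KI cells. It was thus near 0 in 3 of the 6 columns, and its interval reached 0 in 5 of them, including both columns of the female KO table. Ndufa4 itself ran the other way, at 109 FPKM in female KO and 212 in female WT cells, 268 in male KO and 313 in male WT cells, and 241 in KI and 267 in Ctrl-KI cells.

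Car9 (mm9 chromosome 4, 43519898 to 43526597), the cell-surface carbonic anhydrase used as a marker of hypoxic tissue, was 224 FPKM in female KO and 234 in female WT cells, 0.412 in male KO and 0.343 in male WT cells, and 0.797 in KI and 1.10 in Ctrl-KI cells. The lower female KO table value was 204 times the highest other value, which was only 1.10 FPKM. On the scale of FPKM + 1 Car9 had a log2 gap of 6.75, the second widest of all 11535 genes. It stood at percentile 98.3 of the side-by-side genes in female KO and 98.2 in female WT cells and at percentile 17.7 or below in the other 4 columns, where every interval reached 0. In the KI table its locus is drawn wider (43509016 to 43540002).

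Bnip3 (mm9 chromosome 7, 146082519 to 146101189), a receptor that marks mitochondria for removal, was 767 FPKM in female KO and 802 in female WT cells, 45.9 in male KO and 93.3 in male WT cells, and 52.8 in KI and 50.8 in Ctrl-KI cells. Egln3 (mm9 chromosome 12, 55279968 to 55304861), the HIF prolyl hydroxylase that HIF itself induces, was 329 FPKM in female KO and 358 in female WT cells, 22.9 in male KO and 17.7 in male WT cells, and 20.0 in KI and 11.5 in Ctrl-KI cells. For both, female KO and WT cells were alike in level and the other columns lay below them.

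Ndrg1 (mm9 chromosome 15, 66760880 to 66801203), a stress-induced cytoplasmic protein, was 725 FPKM in female KO and 268 in female WT cells, 11.8 in male KO and 5.77 in male WT cells, and 9.91 in KI and 5.20 in Ctrl-KI cells. Ankrd37 (mm9 chromosome 8, 47082262 to 47085204), a small ankyrin-repeat protein, was 146 FPKM in female KO and 92.8 in female WT cells, 5.58 in male KO and 7.81 in male WT cells, and 4.13 in KI and 5.64 in Ctrl-KI cells. Ndrg1 was higher in every mutant column than in its control, and Ankrd37 was so in the female KO table.

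By their deposited values the 10 genes spanned less in the high columns than in the low ones. FPKM is scaled by transcript length, so levels can be ordered between genes. The highest over the lowest gene was 22.5 in female KO and 19.2 in female WT cells, 1255 in male KO and 1144 in male WT cells, and 111 in KI and 714 in Ctrl-KI cells. In every low column and in female KO cells the interval of the lowest gene reached 0, so these spans have no firm size. That gene was Car9 in KI cells and Ndufa4l2 in the others. Vegfa and Bnip3 were the first pair in all 6 columns, with Bnip3 above Vegfa in male WT cells alone. Of the 9 neighbouring pairs in the order, intervals were apart for 1 in female KO and 0 in female WT cells, 0 in male KO and 0 in male WT cells, and 3 in KI and 2 in Ctrl-KI cells, so most neighbours did not differ beyond their deposited error.

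Other genes of the pathway showed the same contrast between tables to a lesser extent. Of 52 further HIF targets in 3 lists, 48 could be set side by side and 31 were at least 2-fold above the other 4 columns in both columns of the female KO table, against 7.47% of all genes. Among targets of glucose metabolism these were 11 of 17, led by Pfkfb3, which makes the activator of phosphofructokinase: 203 FPKM in female KO and 97.4 in female WT cells, at most 3.80 in the others. Aldoa, Tpi1 and Gapdh, merged with other genes in the KI table, were not set side by side. They were 1757, 345 and 1731 FPKM in female KO against 1784, 308 and 1363 in male WT cells, so none would have passed 2-fold. Pfkfb4, another enzyme of that family, had the lowest gap of the list, at 2.46 FPKM in female KO and 2.63 in female WT cells against 1.68 to 2.62 elsewhere. Of the secreted and matrix targets 5 of 12 were above, led by the collagen hydroxylase P4ha2, 208 FPKM in female KO and 149.96 in female WT cells, at most 9.49 in the others. Cxcl12, a chemokine, was lowest in that list, at 67.7 FPKM in female KO and 54.7 in female WT cells, 112 in male KO and 6.75 in male WT cells, and 18.3 in KI and 11.7 in Ctrl-KI cells. Of the remaining targets 15 of 19 were above, led by the adenylate kinase Ak4, 89.8 FPKM in female KO and 70.7 in female WT cells, at most 4.05 in the others. Cited2, a competitor of HIF for its coactivators, was the lowest, at 114 FPKM in female KO and 108 in female WT cells against 87.7 to 278 elsewhere. Several glycolytic genes, Gapdh and Pgk1 among them, have near-identical pseudogene copies, so their values are uncertain.

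Of the HIF subunits 4 could be set side by side, and 1 of them, Epas1, was 2-fold above the other columns, where 7.47% of all genes were. Hif1a was 32.8 FPKM in female KO and 22.4 in female WT cells, 37.1 in male KO and 29.7 in male WT cells, and 36.3 in KI and 28.9 in Ctrl-KI cells, so its transcript was no higher in the female KO table. Its partner Arnt was 32.8 FPKM in female KO and 25.2 in female WT cells and 11.7 to 18.2 elsewhere. Epas1, which encodes HIF-2 alpha, was 4.91 FPKM in female KO and 3.50 in female WT cells and at most 0.584 in the others, with a log2 gap of 1.51. Arnt2 stayed within 1.46 to 5.54 FPKM over the 6 columns, and Hif3a was at most 0.0766.

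Of the 8 sensing and degradation genes 1, Egln1, was 2-fold above, where 7.47% of all genes were. Egln1, the main HIF prolyl hydroxylase and itself a HIF target, was 178 FPKM in female KO and 96.0 in female WT cells and 18.05 to 23.0 elsewhere. Egln2, the remaining prolyl hydroxylase, was 22.7 FPKM in female KO and 32.5 in female WT cells and 21.1 to 23.0 elsewhere. Vhl, which binds hydroxylated HIF, was 26.6 FPKM in female KO and 17.2 in female WT cells and 10.9 to 16.2 elsewhere. The VHL complex subunits Cul2, Rbx1, Tceb1 and Tceb2 had lower values in both columns of the female KO table than in the other columns, and the asparagine hydroxylase Hif1an was 25.4 FPKM in female KO and 41.8 in female WT cells and 14.8 to 36.3 elsewhere.

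Paralogues of the 10 genes split. Slc2a3, the glucose transporter GLUT3, was 59.1 FPKM in female KO and 21.5 in female WT cells and at most 0.738 elsewhere, and Ndrg2 was 81.5 and 146.9 FPKM in female KO and WT cells and at most 3.15 elsewhere. The mitophagy receptor Bnip3l was 200.1 FPKM in female KO and 148 in female WT cells and 31.1 to 45.2 elsewhere. Figf, a lymphatic VEGF, also passed 2-fold, at 2.77 FPKM in female KO and 2.07 in female WT cells and at most 0.327 elsewhere. Egln1, given above, was the fifth of the 15 paralogues set side by side to do so, where 7.47% of all genes did. Vegfb, merged with other genes in the KI table, was not set side by side; it was 34.01 FPKM in female KO and 38.7 in female WT cells. Vegfc, Pdk2, Pdk3, Pdk4, Ndrg3, Ndrg4, Car14 and Slc2a4 had gaps between -1.49 and 0.81 on the log2 scale, and Car12 was under 1 FPKM in all 6 columns. Receptors for VEGF and adrenomedullin ranged widely. On the scale of FPKM + 1 Nrp2, a VEGF co-receptor, was the only one of 7 set side by side that passed 2-fold, where 7.47% of all genes did. It was 39.1 FPKM in female KO and 11.1 in female WT cells and at most 4.76 elsewhere. Calcrl, the adrenomedullin receptor, was 18.2 FPKM in female KO and 5.72 in female WT cells and at most 5.96 elsewhere. Kdr, the main VEGF receptor, was at most 0.265 FPKM in any column. The VEGF receptor Flt1 was at most 2.27 FPKM and the adrenomedullin receptor partners Ramp1, Ramp2 and Ramp3 at most 4.96, 1.74 and 3.72 FPKM. Without the added 1 FPKM the lower female KO table value was 4.27 times the highest other value for Ramp2 and 3.06 times for Flt1. For Calcrl, Ramp1, Ramp3 and the VEGF receptor Flt4 it was below the highest other value.

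**Figure D3:**
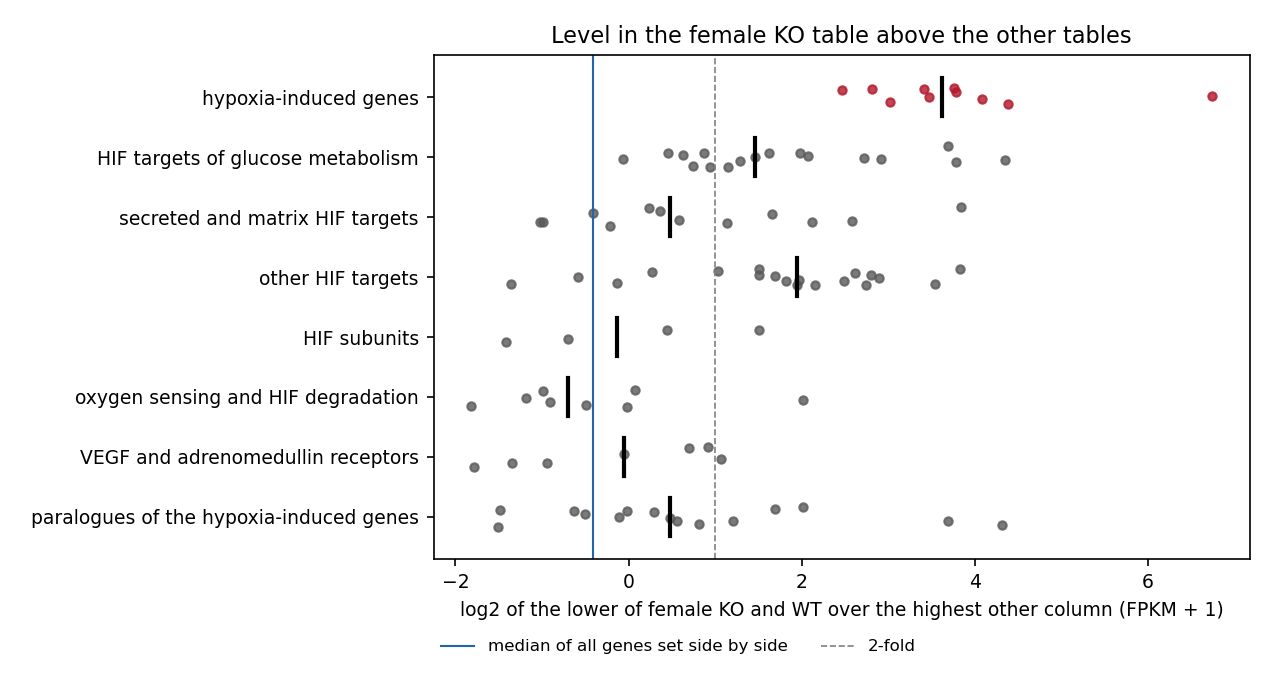
For each gene of 8 lists, the log2 gap between the lower of the female KO and female WT values and the highest of the other 4 columns (FPKM + 1); black bars are list medians, the blue line is the median of all 11535 genes and the dashed line marks 2-fold. All 10 hypoxia-induced genes lie past the dashed line, between 2.47 and 6.75, while most HIF subunits, sensors and receptors lie below it.

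Markers of other cell types were summed over loci that carry 1 symbol. On the scale of FPKM + 1 none of those set side by side was 2-fold above in both columns of the female KO table. Without the added 1 FPKM some low markers were, such as the endothelial Erg at 6.12 times the highest other value, and others, such as Emcn, were not. Set side by side were 10 of 14 endothelial, 14 of 15 fibro-adipogenic, 2 of 11 immune and 8 of 10 pericyte and smooth muscle markers. Their part in the levels was not tested. The summed FPKM of 15 markers of fibro-adipogenic cells, the connective tissue cells of muscle, was 835 in female KO and 391 in female WT cells, 192 in male KO and 62.6 in male WT cells, and 556 in KI and 45.8 in Ctrl-KI cells. The summed FPKM of 14 endothelial markers was 48.6 in female KO and 31.5 in female WT cells, 75.3 in male KO and 4.03 in male WT cells, and 11.5 in KI and 4.06 in Ctrl-KI cells. Immune markers summed to 18.2 in female KO and 10.6 in female WT cells and to at most 33.1 elsewhere, with Ptprc at most 0.224 FPKM in any column. Muscle differentiation markers summed to 3062 in female KO and 7393 in female WT cells, 2959 in male KO and 12181 in male WT cells, and 9648 in KI and 10879 in Ctrl-KI cells. Pericyte and smooth muscle markers, of which myoblasts also express Acta2 and Des, summed to 769.8 in female KO and 1497 in female WT cells and to 1379 to 3514 elsewhere. Acta2 and Des carried most of that sum; Pdgfrb, a pericyte marker, was 21.7 FPKM in female KO and 8.78 in female WT cells, 0.655 in male KO and 0.269 in male WT cells, and 26.7 in KI and 0.442 in Ctrl-KI cells. The male sums leave out Tagln and Myh3, whose status was not OK, and Cd68, which is merged there, and the KI and Ctrl-KI sums leave out Esam, Cd68 and Fcer1g, which are merged there.

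Between female KO and female WT cells the 10 genes differed by less than between tables. On the scale log2((FPKM + 1)/(FPKM + 1)), mutant over control, their median was 0.31, against -0.08 over all 12344 genes with at least 1 FPKM in 1 column. Ndrg1 was the 1 gene at least 2-fold higher (log2 ratio 1.43), where 4.49% of all genes were, and 0 were 2-fold lower, where 4.40% were. Adm (0.81), Ankrd37 (0.65), Slc2a1 (0.51) and Vegfa (0.51) were above WT by less. Pdk1 (0.11), Ndufa4l2 (-0.01), Car9 (-0.06), Bnip3 (-0.06) and Egln3 (-0.12) were level with it. The deposited intervals of KO and WT overlapped for all 10, where 0.664% of all genes had intervals apart and higher and 0.235% apart and lower.

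Several other targets stood higher in female KO than in female WT cells. Of the 51 further HIF targets past 1 FPKM, 12 were at least 2-fold higher, where 4.49% of all genes were, and 0 lower, where 4.40% were. The median log2 ratio of the 51 was 0.38, against -0.08 over all genes. Ero1l, an oxidase of the endoplasmic reticulum, was 1115 FPKM in KO and 296 in WT cells (log2 ratio 1.91). Hilpda, a lipid droplet protein, was 287 FPKM in KO and 84.7 in WT cells (1.75), and the hormone Stc1 was 25.2 FPKM in KO and 7.13 in WT cells (1.69). Slc2a3 headed the glucose list, in which Pfkfb3, Hk1, Hk2 and Gbe1 also passed 2-fold, and Tpi1 was its lowest at 345 FPKM in KO and 608 in WT cells (-0.82). The lowest of the others were Stc2 (-0.18) and Bhlhe41 (-0.27). The receptors Nrp2 and Calcrl, with the values given above, were also 2-fold higher in KO (log2 ratios 1.73 and 1.51). Among paralogues, Vegfc was 13.6 FPKM in KO and 5.21 in WT cells, whereas Pdk2 was 13.7 FPKM in KO and 32.7 in WT cells. Slc2a4, the glucose carrier that answers to insulin, was 3.74 FPKM in KO and 20.2 in WT cells, with intervals apart. Egln1 was 0.88 higher and Tceb2 0.88 lower on the log2 scale, and no HIF subunit or sensor passed 2-fold. Among markers past the filter, 4 of 12 fibro-adipogenic and 4 of 8 proliferation markers were 2-fold higher and 5 of 9 muscle markers 2-fold lower in KO. Proliferation markers summed to 120.2 FPKM in KO and 65.3 in WT cells. Their part in these differences was not tested.

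In males 8 of the 10 genes passed the filter of 1 FPKM in 1 column; Car9 and Ndufa4l2 were below it in both. The median log2 ratio of the 8 was -0.05, against -0.02 over 11440 genes. Adm was the 1 gene at least 2-fold higher (log2 ratio 2.89), where 9.90% of all genes were. It was under 1 FPKM in male WT cells and passed the filter through the KO column alone, which fixes the direction of its ratio. That ratio also enters the median of the 8. Bnip3 was the 1 gene at least 2-fold lower, at the threshold (-1.01), where 6.47% of all genes were, and with a pseudocount of 5 FPKM or with ratios centred on the median of all genes it was not. Pdk1 lay just short of it (-0.95), as did Ndrg1 on the higher side (0.92). The intervals of KO and WT overlapped for all 8, where 0.603% of all genes were apart and higher and 0.262% apart and lower.

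In males the further HIF targets past 2-fold upward were mostly secreted and matrix genes. Of 48 past the filter 9 were at least 2-fold higher, where 9.90% of all genes were, and 6 lower, where 6.47% were. The median log2 ratio of the 48 was 0.20, against -0.02 over all genes. Of the 11 secreted and matrix genes 7 passed 2-fold upward, among them the collagen cross-linking enzyme Loxl2 at 17.9 FPKM in male KO and 1.47 in male WT cells (2.94). For 2 of the 7, Angptl4 and Edn1, male WT cells were under 1 FPKM, which fixes their direction. The other 2 were Hmox1, heme oxygenase, at 127 FPKM in male KO and 44.5 in male WT cells (1.49), and Cited2. In the glucose list Hk1 was highest (0.71) and glycogen synthase, Gys1, lowest at 30.9 FPKM in male KO and 81.0 in male WT cells (-1.36). The lipoprotein receptor Vldlr was 5.36 FPKM in male KO and 15.1 in male WT cells (-1.34), Stc2 23.4 and 75.2 FPKM (-1.64), and Hif1an 14.8 and 34.8 FPKM (-1.18). Slc2a4 was the lowest paralogue, at 1.52 FPKM in male KO and 9.08 in male WT cells (-2.003), and Pdk4 the highest (0.76). Of the receptors, Nrp1 (merged with Mir1903) was 18.6 FPKM in male KO and 3.11 in male WT cells, Calcrl 5.96 and 1.12 FPKM, and Flt4, which passed the filter through the KO column alone, 1.27 and 0.0760 FPKM. Marker genes moved with Adm and the secreted genes: 4 of 5 endothelial, 7 of 10 fibro-adipogenic and 8 of 8 proliferation markers past the filter were 2-fold higher, and 7 of 8 muscle markers 2-fold lower, in male KO cells. Of those higher, 3 endothelial, 3 fibro-adipogenic and 1 proliferation marker were under 1 FPKM in male WT cells, which fixes their direction. Emcn was 40.6 FPKM in male KO and 0.0268 in male WT cells, while Tie1 was listed at 0 in male WT and 0.0404 FPKM in male KO cells, and Lum was listed at 0 in both. Their part in the result was not tested.

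In the KI table the 10 genes had a median log2 ratio of 0.52, against -0.04 over 11084 genes. Ndufa4l2 (2.70) and Adm (1.25) were at least 2-fold higher, where 3.86% of all genes were, and 0 were lower, where 0.893% were. Both were under 1 FPKM in Ctrl-KI cells (Adm 0.858, Ndufa4l2 0.101) and passed the filter through the KI column alone, which fixes the direction of their ratios. Both ratios also enter the median of 0.52. Adm did not pass 2-fold with a pseudocount of 5 FPKM. Slc2a1 (0.96), Ndrg1 (0.81), Egln3 (0.75), Vegfa (0.29), Pdk1 (0.29) and Bnip3 (0.05) were above Ctrl-KI by less, and Car9 (-0.22) and Ankrd37 (-0.37) below. The deposited intervals, narrow in this table, were apart and higher for 4 genes, Adm, Slc2a1, Egln3 and Ndrg1, where 8.27% of all genes were. They were apart and lower for 0, where 3.73% were. Of the 4 genes, Adm has its direction fixed by the filter. The Ndufa4l2 intervals of KI and Ctrl-KI, 0.413 to 11.9 and 0 to 0.726, overlapped.

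Of the further HIF targets 46 passed the filter in the KI table. Of these 6 were at least 2-fold higher, where 3.86% of all genes were, and 1 lower, where 0.893% were. The median log2 ratio of the 46 was 0.17, against -0.04 over all genes. The collagen cross-linking oxidase Lox was 132 FPKM in KI and 1.85 in Ctrl-KI cells (5.55) and its relative Loxl2, which passed the filter through the KI column alone, 51.7 FPKM in KI and 0.841 in Ctrl-KI cells. The lactate exporter Slc16a3 was 13.8 FPKM in KI and 3.71 in Ctrl-KI cells (1.66) and the transcription factor Bhlhe40 17.0 and 5.62 FPKM (1.44), while Bhlhe41 had the lowest ratio of its list (-0.48). Stc2 was the 1 gene lower, at 48.1 FPKM in KI and 98.5 in Ctrl-KI cells (-1.02). Aldoa, merged with Ppp4c, was the lowest of the glucose list (-0.39). Nrp1, Nrp2 and Ramp3 were 2-fold higher among receptors, Nrp2 at 4.76 FPKM in KI and 0.649 in Ctrl-KI cells. Nrp2 and Ramp3 passed the filter through the KI column alone. Of the paralogues, Ndrg2 was highest (0.94) and Pdk4 lowest (-0.997, short of 2-fold), and no HIF subunit or sensor passed 2-fold. Fibro-adipogenic markers moved with these genes, 10 of 14 past the filter being at least 2-fold higher and Col1a1 reading 158 FPKM in KI and 0.515 in Ctrl-KI cells. Of pericyte and smooth muscle markers 4 of 8 were 2-fold higher, Pdgfrb reading 26.7 FPKM in KI and 0.442 in Ctrl-KI cells, and of immune markers 1 of 3, Lyz2, at 31.0 FPKM in KI and 0.282 in Ctrl-KI cells. Of those higher, 8 fibro-adipogenic, 3 pericyte and 1 immune marker were under 1 FPKM in Ctrl-KI cells, which fixes their direction. Their part in the result was not tested.

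**Figure D4:**
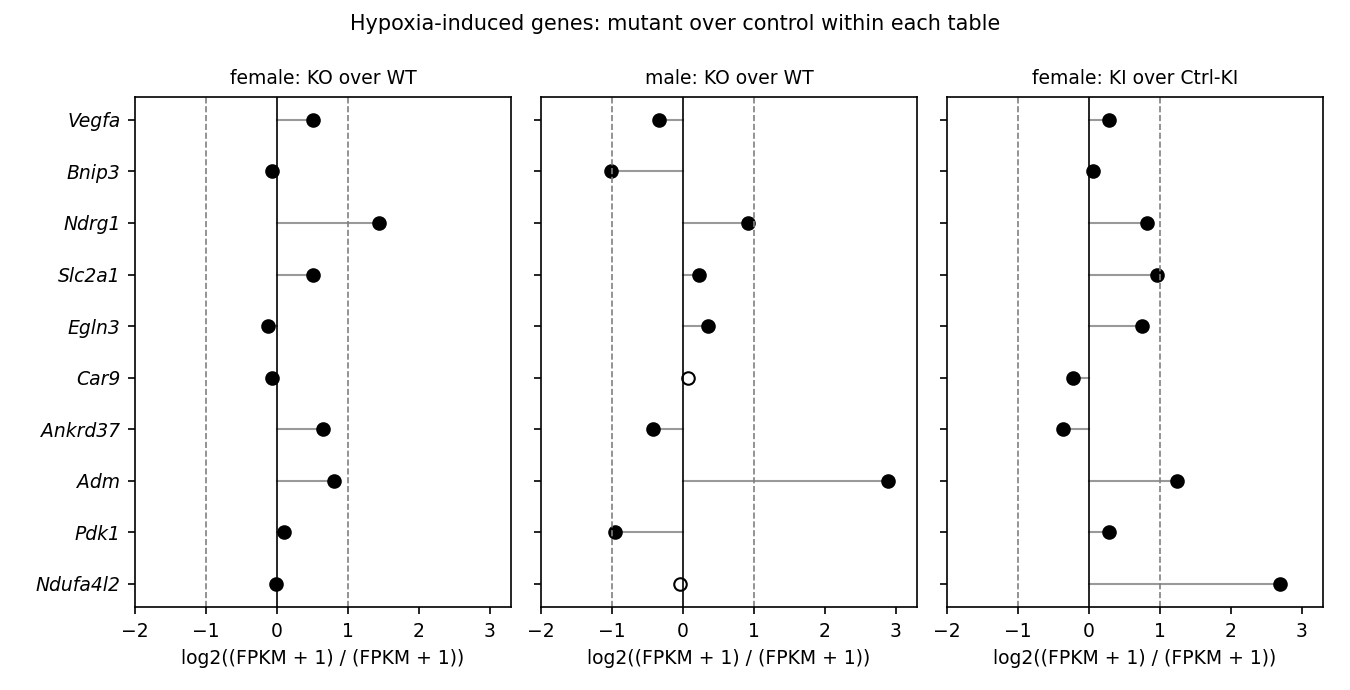
Log2 ratio of FPKM + 1, mutant over control, of the 10 hypoxia-induced genes in the female KO, male KO and KI tables; dashed lines mark 2-fold and open circles are genes under 1 FPKM in both columns. Ndrg1 passes 2-fold in the female panel, Adm and Bnip3 in the male panel, and Adm and Ndufa4l2 in the KI panel.

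Across the 3 tables, Adm, Ndrg1 and Slc2a1 were above their control in all of them and 0 of the 10 genes were below it in all. How many of all genes keep 1 direction in this way was not counted, so no agreement between tables can be read from it. For Adm the filter fixes the direction in the male and KI tables. The male Slc2a1 ratio was 0.23, with overlapping intervals, and -0.49 on another scaling (TPM over all loci). The female KO, male KO and KI comparisons share no library.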

How the data were processed

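FPKM values, their confidence bounds and a status flag come from 3 tracking tables that the authors deposited, per the file headers. The submitters' processing notes name build mm9 and, with no role, Cufflinks 2.2.1, Cuffdiff, edgeR, TopHat2 2.0.12, Bowtie2 2.2.4, bedtools 2.16.2 and HTSeq 0.6.1. The annotation and strand are not given in the sources used here. Groups came from sample titles. Locus starts are printed 1 higher: of 234 microRNA loci within 5 bases of their RefSeq length, 228 had a width equal to it only with starts counted from 0.

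Loci without a symbol (0 in the female KO, 5680 in the male KO and 5971 in the KI table) or with a status other than OK (6, 61 and 15) were left out, and genes needed 1 FPKM in 1 column. Ratios were log2((FPKM + 1)/(FPKM + 1)), mutant over control, within a table. The added 1 FPKM shrinks ratios of low genes. No test was possible on single columns, so a gene was counted at 2-fold. Alternatives were other pseudocounts, filters and scalings, merged loci left out and the intervals in place of 2-fold. Genes on 1 unmerged locus in all tables were set side by side. The 10 genes and 14 lists (the 10 genes, 7 of the pathway, 4 of other cell types, muscle and proliferation) were chosen with earlier results of these data known. Named are the 10 genes, the extremes of each list, and all subunits, sensors, receptors and paralogues; 1 extreme is not reported here, and others were chosen after their values were seen, as was the comparison of levels by gap and percentile. Bnip3l, Slc2a3, Egln1, Egln2, Car12, Kdr and Flt1 are each in 2 lists. The ratio calculation was tested on simulated data. Tools were python 3.11.15, pandas 2.3.3, numpy 2.4.6 and matplotlib 3.10.9.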

Additional observations from a re-analysis of the deposited data

Results flagged for a closer look

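For 4 of the 8 hypoxia-induced genes past 1 FPKM in both sexes, the log2 ratio of UTX KO over WT had opposite signs in females and males, against 33.5% of 10482 genes. Each ratio rests on 1 library per group, so the difference was not tested, and the female ratios of Pdk1 and Egln3 were near 0. The female minus male difference in log2 ratio was 1.07 for Ankrd37 (0.65 in females, -0.42 in males), 1.06 for Pdk1 (0.11 and -0.95) and 0.86 for Vegfa (0.51 and -0.34). For Egln3 it was -0.47 (-0.12 in females, 0.35 in males). The intervals of KO and WT overlapped for all 4 genes in both sexes.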

How the results depend on the processing

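All 10 genes stayed at least 2-fold above the other 4 columns in both columns of the female KO table with pseudocounts of 0.1 and 5 FPKM, a filter of 5 FPKM, TPM over loci with a symbol or over all loci, and columns centred on their median. These settings were chosen after seeing the data. With TPM over all loci 48.3% of all genes did so. The total of that scaling takes in loci without a symbol, which were 0 in the female KO, 5680 in the male KO and 5971 in the KI table.

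In the female KO table Ndrg1 was the 1 gene past 2-fold under every scaling and filter tried, but 0 genes had intervals apart. The median of the 10 genes moved to 0.49 with TPM over loci with a symbol and over all loci. In males, a pseudocount of 0.1 FPKM gave 2 genes higher (Adm, Ndrg1) and 2 lower (Bnip3, Pdk1), and 0 were lower with a pseudocount of 5 FPKM or median-centred ratios. TPM over loci with a symbol gave 2 higher, 0 lower and a median of 0.11. TPM over all loci, which moved the median of all genes from -0.02 to -0.70, gave 3 lower and a median of -0.72. With intervals as the criterion 0 were higher and 0 lower. Between KI and Ctrl-KI 1 gene was higher, Ndufa4l2, with a pseudocount of 5 FPKM (median 0.40), a filter of 5 FPKM or TPM over all loci (median -0.23, with the median of all genes at -0.77). With a pseudocount of 0.1 FPKM, median-centred ratios or TPM over loci with a symbol (median 0.64) Slc2a1 joined Adm and Ndufa4l2, and 4 genes had intervals apart. The cause was not tested. Of 250 ratios of single genes under the alternatives, 239 stayed within the range the deposited intervals allow, 11 did not, all from KI against Ctrl-KI, and 0 that had passed 2-fold changed sign. These counts do not measure stability. Other filters and leaving out merged loci cannot change the ratio of a single gene. The wide intervals of the female and male KO tables also allow large shifts: Vegfa in males moved from -0.34 to -1.11 with TPM over all loci and counted as within range.

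No paired analysis was possible because KI and Ctrl-KI have a single pooled column each and the other groups have 1 library each; replicates could not be left out for the same reason. Without read counts, depth limits cannot be given, and values near 0, as for Ndufa4l2 in males, cannot be told from 0.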
